A study of Homo sapiens with 10 samples.

Results

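The comparison set the A549 line labelled as an ABCA3 knockout (KO) against 3 A549 lines labelled with the missense variants L101P, E292V and E690K of the same gene. A549 is an established line from a human lung adenocarcinoma with alveolar epithelial features. Each line was sequenced once untreated and once after overnight exposure to LV-ABCA3:GFP (multiplicity of infection 20), a VSVG lentiviral vector that carries ABCA3 joined to GFP. The comparison therefore held 8 of the 10 libraries of the series, 2 of the KO line and 6 of the missense lines, and the other 2, from the wild-type (WT) line, entered the fit but not the contrasts. Each genotype is 1 line, and the labels do not say whether it is a clone. There was 1 library for each line and vector status. The p-values therefore weigh a difference between lines against the departure of these libraries from additive effects of line and vector. They do not measure the spread between independent clones of a genotype.

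A gene was kept when its level in the KO line differed, with 1 sign, from that in each of the 3 missense lines, every time with an adjusted p under 0.05 (edgeR quasi-likelihood test, Benjamini-Hochberg adjustment, 17978 genes tested). By this rule 5 genes were kept, 0.0278% of those tested. All 5 were lower in the KO line: SAGE1, CRMP1, PPARGC1A, LINC02416 and the row for the fluorescent protein tdTomato. The number kept in the other direction was 0, although 15, 1060 and 125 genes passed the test as higher in KO against L101P, E292V and E690K taken singly. With an unadjusted p under 0.05 against all 3 lines 62 genes were higher and 111 lower, and the DESeq2 Wald test kept 5 higher and 14 lower genes. The 3 single contrasts share the KO libraries and are steps of 1 rule, not independent support for each other.

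ABCA3 pumps phospholipid into lamellar bodies, the organelles in which alveolar type 2 cells store surfactant. Missense variants of the gene are commonly grouped by their effect: in some the protein is misfolded and held in the endoplasmic reticulum, and in others it reaches lamellar bodies but transports lipid poorly. A true null line has no such protein to fold or to deliver, which is why a knockout is a useful partner to missense lines.

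RefSeq promoter windows (GRCh38.p14, 250 bases before to 50 after a RefSeq start site) are shown for the 3 kept protein-coding genes. They were chosen because these genes share a direction and the windows differ widely in CG content. Capitals mark CG dinucleotides. The window of SAGE1 lies at chrX:135893466-135893765 on the plus strand, that of CRMP1 at chr4:5893037-5893336 on the minus strand and that of PPARGC1A at chr4:23881052-23881351 on the minus strand.
SAGE1: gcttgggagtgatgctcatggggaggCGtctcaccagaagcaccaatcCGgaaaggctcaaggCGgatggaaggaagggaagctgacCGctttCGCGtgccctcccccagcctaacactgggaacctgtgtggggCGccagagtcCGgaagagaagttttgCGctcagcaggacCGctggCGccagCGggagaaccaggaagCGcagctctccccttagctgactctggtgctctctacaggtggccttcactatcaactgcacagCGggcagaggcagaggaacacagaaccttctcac
CRMP1: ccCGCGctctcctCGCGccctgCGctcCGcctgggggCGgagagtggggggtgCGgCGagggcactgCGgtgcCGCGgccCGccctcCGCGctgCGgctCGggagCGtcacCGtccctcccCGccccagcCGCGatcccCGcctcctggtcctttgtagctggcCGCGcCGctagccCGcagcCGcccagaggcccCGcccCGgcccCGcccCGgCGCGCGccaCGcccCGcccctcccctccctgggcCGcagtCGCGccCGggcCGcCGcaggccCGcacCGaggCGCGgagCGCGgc
PPARGC1A: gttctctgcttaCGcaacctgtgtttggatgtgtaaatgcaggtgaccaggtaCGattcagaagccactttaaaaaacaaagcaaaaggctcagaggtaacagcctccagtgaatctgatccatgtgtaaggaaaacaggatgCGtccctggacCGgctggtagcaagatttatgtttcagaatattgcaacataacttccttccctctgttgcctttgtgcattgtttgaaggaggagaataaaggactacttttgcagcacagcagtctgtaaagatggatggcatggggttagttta
The SAGE1 window held 14 CG dinucleotides, and 63% of the 16902 windows matched to rows of the count table held at least as many. CRMP1 had 49, a number reached by 1.93% of windows. PPARGC1A had 4, and 83.5% of windows held at least that number. CRMP1 has 4 windows in the RefSeq table and PPARGC1A 2, and the one nearest the annotated start of the gene is shown. The windows of SAGE1 and PPARGC1A lay inside the GENCODE genes, downstream of their annotated starts at 135889205 (plus strand) and 23904089 (minus strand). The 3 windows shown thus ranged from CG-rich to CG-poor. Which start sites were used in these cells was not tested, and no methylation was measured in this series.

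The targeted gene was examined before the kept genes. ABCA3 stood at 601 CPM (counts per 1e+06 counts of the library; Wilson 95% interval 593 to 608) in the library labelled KO untreated and at 25.8 CPM (24.2 to 27.4) in the library labelled KO transduced. It stood at 1156 and 896 CPM in the untreated and transduced L101P libraries, at 992 and 1035 CPM in those of E292V, and at 890 and 968 CPM in those of E690K. Both KO libraries lay below all 6 missense libraries, but they differed from each other far more than the missense libraries did. WT had 362 CPM untreated and 610 CPM transduced, so the library labelled KO untreated was within the WT range and the missense libraries were above it. EGFP, counted in a row of its own, had 2842 counts in the library labelled KO untreated and 4 in the library labelled KO transduced, so the targeted gene and the vector's marker both went against the labels of this pair. EGFP was also counted in every other library labelled untreated, but less than in the transduced library of its line. L101P had 60 counts untreated and 3474 transduced, E292V 1634 and 6338, E690K 1236 and 1406, and WT 5924 and 12432. The log2 difference of ABCA3 between KO and the mean of the missense lines was -1.90 (SE 0.75, edgeR adjusted p = 0.331) and did not pass the test. When the labels of the KO pair were exchanged, 3 genes were kept in place of 5 and 44 genes were called against the mean of the missense lines in place of 202. Of 36 named genes followed, which were ABCA3 and those called against that mean, 23 no longer passed with this exchange.

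Total counts of the 8 libraries ranged from 59430095 to 96811421, those of the KO pair from 74973562 to 81218415. The share of counts from genes of the mitochondrial genome was 5.5% to 5.71% in the KO libraries and 4.59% to 5.52% in the missense libraries. The epithelial genes EPCAM and CDH1 were counted in all 8 libraries, at 10.4 CPM or more. Other epithelial genes were near 0: GRHL2 had 0 to 10 counts per library, RAB25 0 to 6 and ESRP2 0 to 22. The alveolar type 2 gene SFTPC did not exceed 0.337 CPM in any of them, so the transcript of this defining product of type 2 cells was at most low. Marker lists of fibroblasts, leukocytes and endothelial cells summed to 34.0 to 37.3, 38.8 to 39.4 and 53.7 to 65.8 CPM in the KO libraries against 26.7 to 155, 25.7 to 51.5 and 52.1 to 67.3 CPM in the missense libraries. The fibroblast gene POSTN and the leukocyte genes CD3E, CD3D and MS4A1 had 0 counts in all 8. Other members of these lists were counted in all 8 libraries. The fibroblast genes COL1A1 and THY1 were at 13.8 to 118 and 7.64 to 29.1 CPM. The leukocyte genes CD14 and ITGAM were at 1.13 to 5.31 and 1.87 to 3.14 CPM.

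SAGE1, a cancer-testis antigen gene normally silent outside the germ line and reactivated in many tumours, was the kept human gene with the smallest p. It lies on chromosome X, from 135889205 to 135913061 on the plus strand (GRCh38, GENCODE release 29). It was measured at 5.95 CPM in the KO untreated library (5.22 to 6.78) and 4.21 CPM in the KO transduced library (3.63 to 4.89). The L101P libraries had 18.1 and 15.7 CPM, the E292V libraries 19.3 and 19.0 CPM and the E690K libraries 17.1 and 14.5 CPM. The highest KO value was under the lowest missense value; L101P and E690K overlapped each other, and E292V lay just above both. The log2 difference from the mean of the missense lines was -1.77 (SE 0.12, edgeR adjusted p = 2.7e-05). Against the single lines it was -1.75 for L101P, -1.89 for E292V and -1.67 for E690K. On pooled read pairs the missense level was 3.42 times the KO level (3.08 to 3.80). SAGE1 was kept in 19 of 19 alternative settings.

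CRMP1 encodes a cytosolic phosphoprotein of the dihydropyrimidinase-related family that acts downstream of semaphorin signals on the cytoskeleton of neurons. It lies on chromosome 4, from 5748084 to 5893058 on the minus strand, and overlaps EVC on the opposite strand; whether counting used strand is not given in the sources used here. Its level was 13.6 and 12.8 CPM in the KO libraries, 25.9 and 20.7 CPM in L101P, 24.5 and 21.5 CPM in E292V, and 22.4 and 22.2 CPM in E690K. The KO libraries lay together below the range of the others. The log2 difference was -0.79 (SE 0.09, edgeR adjusted p = 0.00329), and the pooled missense level was 1.72 times that of KO (1.61 to 1.84). CRMP1 was kept in 15 of 19 settings; it was lost when either KO library or either E690K library was left out.

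PPARGC1A encodes PGC-1alpha, a coactivator that drives transcription for mitochondrial biogenesis and oxidative metabolism. The gene lies on chromosome 4, from 23755041 to 23904089 on the minus strand, and 2 annotated antisense genes, AC093607.1 and AC092834.1, overlap it. There were 4 counts in the KO untreated library and 0 in the KO transduced library. The L101P libraries had 42 and 88 counts, the E292V libraries 74 and 42, and the E690K libraries 66 and 64. The transcript was thus at the edge of detection in the KO line and low but present in the others, between 0.443 and 0.938 CPM. Its fitted log2 difference was -4.88 (SE 0.79, edgeR adjusted p = 0.0171). With 2 read pairs in KO against 188 in the missense libraries the pooled ratio was 30.4, and its counting interval ran from 8.29 to 253. PPARGC1A was kept in 8 of 18 settings and was lost when either KO or either E690K library was left out. It was also lost with the KO labels exchanged, without a vector term, without the WT libraries and with limma voom, among other settings.

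LINC02416, a long intergenic non-coding RNA of no function known here, lies on chromosome 12 from 47353754 to 47369935 on the plus strand. It had 0 counts in both KO libraries, where 3 read pairs correspond to 0.0800 and 0.0739 CPM. It had 35 and 87 counts in L101P, 51 and 77 in E292V, and 26 and 39 in E690K. All 6 missense libraries held it at levels between 0.344 and 0.899 CPM. The geometric mean of the 6 missense libraries was 7.83 times the level of 3 read pairs in the KO libraries. The contrast with the mean of the missense lines had an edgeR adjusted p of 0.0196. LINC02416 was kept in 9 of 18 settings and was also lost without either KO library or either E690K library. Like PPARGC1A, it was lost with the KO labels exchanged, without a vector term and with limma voom.

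The tdTomato row, a sequence foreign to human cells that marks a construct, had 0 counts in both KO libraries. It had 756 and 542 counts in L101P, 708 and 712 in E292V, 552 and 656 in E690K, and 324 and 236 in WT. Every line but KO therefore carried it in both libraries. The geometric mean of the 6 missense libraries was 106 times the level of 3 read pairs in the KO libraries. The contrast with the mean of the missense lines had an edgeR adjusted p of 1.2e-05. How tdTomato came into the lines is not given in the sources used here.

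**Figure D1:**
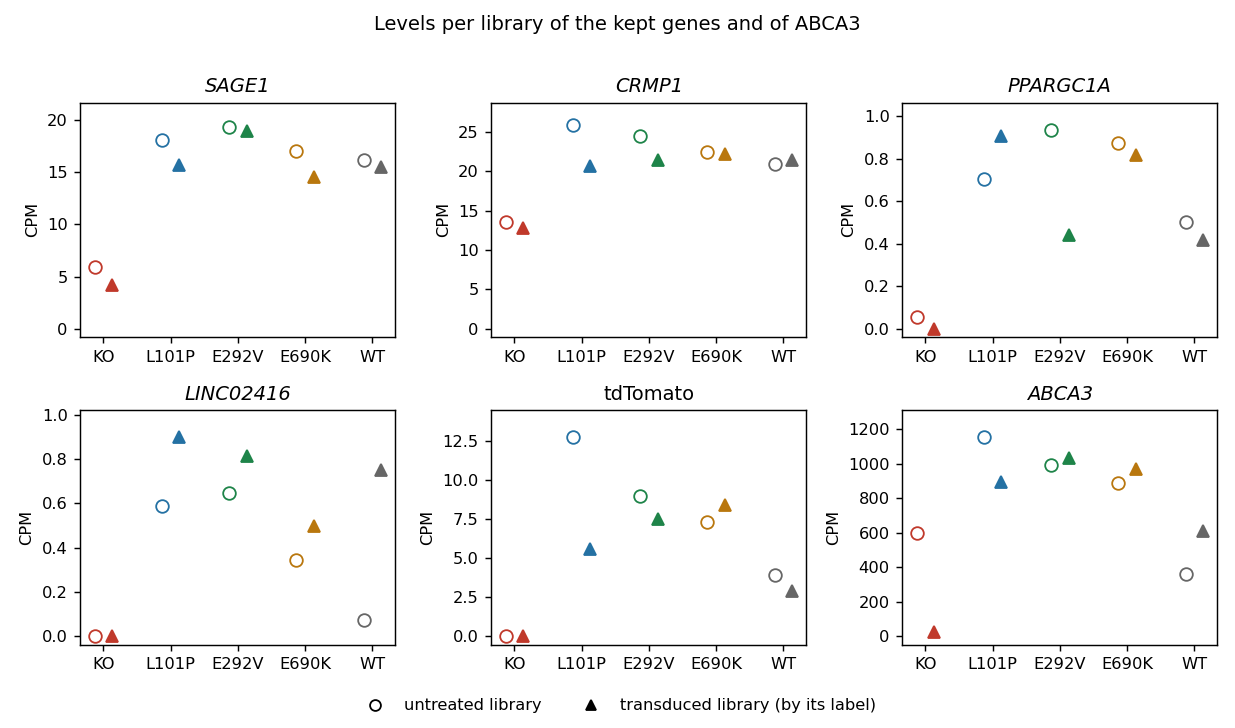
Level in CPM (linear axis) of the 5 kept genes and of ABCA3 in each of the 10 libraries, by line; open circles are untreated and filled triangles transduced libraries as labelled, and there are no error bars because each point is 1 library. For each kept gene both KO points lie below all 6 missense points, and for ABCA3 the KO points lie at 601 and 25.8 CPM.

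The WT line, which the rule did not use, was above KO in both libraries for each kept gene, and within the missense range for some of them. SAGE1 was at 16.2 and 15.5 CPM in WT, inside the range of the missense libraries. CRMP1 was at 20.9 and 21.4 CPM, PPARGC1A at 0.503 and 0.418 CPM and tdTomato at 3.88 and 2.90 CPM. The tdTomato values and the second PPARGC1A value were below all 6 missense libraries. LINC02416 had 6 counts in untreated and 61 in transduced WT cells, so that the first of these was near the KO level and the second within the missense range. By line mean on the log2 scale, 4 of the 5 kept genes had WT between KO and the missense lines and nearer to the missense lines, and 1 had it within the missense range. By line mean, KO was the lowest of the 5 lines for each of the 5 genes.

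The limit of the rule ran through a group of genes with close values. Inside it, the largest of the 3 adjusted p-values was 2.0e-05 for tdTomato, 1.3e-04 for SAGE1, 0.0104 for CRMP1 and 0.0471 for both PPARGC1A and LINC02416 (edgeR). Just outside it were KLF12 at 0.0516, MSI2 at 0.0646, PNMA8A at 0.0647, FAM50B at 0.0867, PID1 at 0.0896 and KRT17 at 0.109. KLF12, a transcriptional repressor of the Krüppel-like family, was at 6.15 and 6.48 CPM in the KO libraries against 2.09 to 3.50 CPM in the 6 missense libraries, higher in KO without overlap. MSI2, an RNA-binding regulator of stem and progenitor cells, was at 46.5 and 45.7 CPM in KO and at 61.8 to 66.0 CPM in the missense libraries.

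Against the mean of the 3 missense lines 202 genes were called, 104 higher in KO (0.578% of those tested) and 98 lower (0.545%). Of the 202, 181 had 1 sign against each line and 21 did not. In 109 of them both KO libraries lay beyond all 6 missense libraries; over all genes tested 3.63% lay above in this way and 3.54% below. Only 5 of the 202 passed the test against all 3 lines singly, while 79 passed against 2 lines, 116 against 1 and 2 against 0. The lines did not contribute equally: 169 of the 202 passed against E292V but 19 against L101P, with E690K between them. The median absolute log2 difference of the 202 was 0.86 from E292V, 0.63 from E690K and 0.29 from L101P.

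A fit that leaves out the line term, and so counts the spread among the missense lines as error, called 2 genes in place of 202. These were SAGE1 (log2 difference -1.77, SE 0.14, edgeR adjusted p = 0.00632) and tdTomato (edgeR adjusted p = 0.00183). Leaving out the KO transduced library left 12 calls and leaving out the KO untreated library 17, while leaving out the transduced L101P library gave 1210. The genes described next are therefore differences of these libraries, and except for the kept genes they did not pass against all 3 missense lines.

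Against L101P 25 genes were called, 15 higher (0.0834%) and 10 lower in KO (0.0556%), and 1008 genes had an unadjusted p under 0.05. Against E690K 125 genes were higher (0.695%) and 170 lower (0.946%). Against E292V 1060 were higher (5.9%) and 857 lower (4.77%). By the rule of being set apart, with 1 sign, from each of the other 3 edited lines, E292V had 985 genes, E690K 50, KO 5 and L101P 4. The number for KO was thus close to that of L101P and far under those of E292V and E690K; the difference between these counts was not tested.

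**Figure D2:**
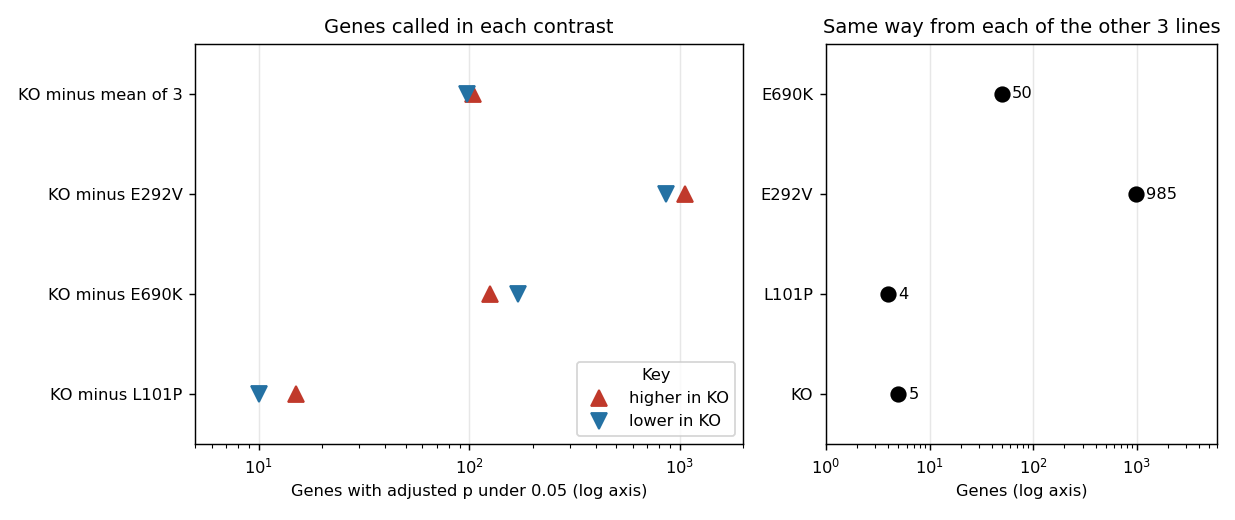
Left, number of genes (log axis) with an adjusted p under 0.05 as higher (red, pointing up) or lower (blue, pointing down) in KO in each contrast; right, number of genes (log axis) that differ the same way between 1 edited line and each of the other 3. The contrast with L101P has 15 and 10 genes and that with E292V 1060 and 857.

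The distances between whole libraries showed the same order. Over the 9432 genes that averaged 10 CPM or more, the SD of the log2 difference between line means was 0.129 for KO and L101P, 0.195 for KO and E690K and 0.329 for KO and E292V. Comparing single libraries of the same vector status, KO and L101P differed with an SD of 0.170 untreated and 0.203 transduced. The 2 libraries of the KO line differed with an SD of 0.165 and those of L101P with 0.243. The KO line was thus about as far from L101P as the libraries of either line were from each other. More than a 2-fold difference between line means was found for 5 genes between KO and L101P, for 29 between KO and E690K and for 140 between KO and E292V.

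**Figure D3:**
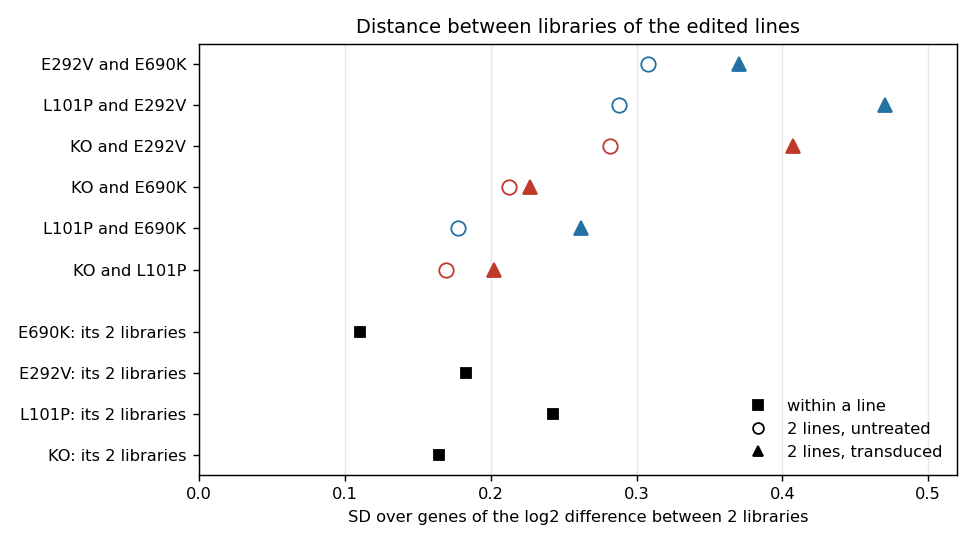
SD over 9432 genes of the log2 difference between pairs of libraries of the 4 edited lines: squares, the 2 libraries of 1 line; open circles and triangles, libraries of 2 lines of the same vector status (red where KO is one of them). KO and L101P, at 0.170 and 0.203, lie within the span of the within-line squares (0.110 to 0.243), and the transduced KO and E292V libraries lie at 0.407.

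There were 108 genes that passed the same way against both E292V and E690K, 51 higher and 57 lower in KO. Those that passed the same way against both L101P and E690K numbered 10, and against both L101P and E292V 8. CPS1, the mitochondrial carbamoyl-phosphate synthetase of the urea cycle, passed against E292V and E690K. It was at 69.0 and 68.6 CPM in KO and 70.7 and 36.6 CPM in L101P, against 10.8 and 5.71 CPM in E292V and 12.03 and 9.36 CPM in E690K. The KO values fell inside the L101P range and far above the other 4 libraries. Its log2 difference was 3.16 (SE 0.23) from E292V and 2.69 (SE 0.22) from E690K, and 0.42 (SE 0.21, edgeR adjusted p = 0.905) from L101P. CPS1 and the genes of the next 6 paragraphs that are not kept were chosen after their values were seen.

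Among the 104 higher genes, the 10 with the largest smallest difference from any of the 3 lines included KLF12, DENND2D, ADH6, ELN, MTRNR2L12, MTRNR2L8, ZNF585B, ZNF841 and ZNF28. The choice considered genes of at least 1 CPM on the higher side in which the KO libraries lay beyond all 6 missense libraries. DENND2D, an exchange factor for Rab9 GTPases, was at 5.82 and 7.74 CPM in KO and 1.85 to 3.80 CPM in the missense libraries. ELN, which encodes elastin, was at 8.04 and 5.70 CPM in KO and 2.76 to 4.44 CPM in the missense libraries. DENND2D and ELN were 1.17 and 0.93 higher on the log2 scale than the missense mean, and their lack of overlap was fixed by the choice. WT had 2.73 and 2.04 CPM of DENND2D, within the missense range, and 6.25 and 4.05 CPM of ELN. For ELN the untreated WT library was within the KO range and the transduced one within the missense range. Neither DENND2D nor ELN passed the test against L101P (edgeR adjusted p = 0.302 and 0.614).

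ADH6, a class V alcohol dehydrogenase, was at 2.48 and 1.65 CPM in KO, 0.942 to 1.15 CPM in the L101P and E292V libraries, and 0.198 and 0.346 CPM in E690K. Its difference from the mean, 1.60 on the log2 scale (SE 0.28, edgeR adjusted p = 0.0227), came mostly from E690K, at 2.90, and was 1.00 and 0.92 from L101P and E292V. Of the 10 genes, 3 encode zinc-finger proteins of chromosome 19, a family of mostly KRAB-containing repressors. ZNF841 was at 2.56 and 1.40 CPM, ZNF28 at 1.56 and 1.48 CPM and ZNF585B at 7.56 and 7.33 CPM in the KO libraries. In the missense libraries they were at 0.393 to 0.938, 0.185 to 0.673 and 2.54 to 5.70 CPM. ZNF585B was at 7.96 and 7.35 CPM and ADH6 at 1.92 and 1.75 CPM in WT, near the KO level, so in these genes KO did not stand apart from WT. Related zinc-finger genes share sequence, so reads may be split among them.

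MTRNR2L12 and MTRNR2L8 are nuclear copies of the mitochondrial 16S ribosomal RNA region, and reads from the mitochondrial transcript can be counted in them, which makes their values uncertain. MTRNR2L12 was at 53.3 and 36.8 CPM in KO and 20.3 to 29.4 CPM in the missense libraries, with a log2 difference of 0.92 (SE 0.14, edgeR adjusted p = 0.0155). WT had 40.5 CPM untreated, within the KO range, and 33.9 CPM transduced, between KO and the missense libraries. The share of mitochondrially encoded counts, given above, was 5.5% to 5.71% in KO against 4.59% to 5.52% in the missense libraries; its part in these 2 rows was not tested.

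Among the 98 lower genes, the 10 chosen in the same way included LINC01322, JPH3, CHD5, KRT17, DOCK3, LINC00623, COL5A1, LINC00540 and RIMS4. COL5A1, a chain of the fibrillar collagen V, was by far the most abundant. It was at 95.2 and 133 CPM in KO, 197 and 176 CPM in L101P, 240 and 420 CPM in E292V, and 257 and 287 CPM in E690K. Its log2 difference was -1.18 (SE 0.18, edgeR adjusted p = 0.0131), and the smallest of the 3, from L101P, was -0.77 (SE 0.20). WT had 135 and 280 CPM of COL5A1, the first close to the KO library at 133 CPM. CHD5, a chromatin remodeller, was at 0.640 and 0.837 CPM in KO and 1.51 to 11.6 CPM in the missense libraries. JPH3, a junctophilin that joins the plasma membrane to the endoplasmic reticulum, was at 0.320 and 0.419 CPM against 0.826 to 2.79 CPM. DOCK3, an activator of Rac, was at 1.28 and 0.616 CPM against 1.92 to 3.47 CPM. RIMS4, of a family of presynaptic active-zone proteins, was at 3.80 and 3.13 CPM against 5.88 to 6.90 CPM.

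RIMS4 was the most even of these across the lines. Its log2 differences were -0.95 from L101P, -0.85 from E292V and -0.88 from E690K, and it passed against E292V and E690K (edgeR adjusted p = 0.0168 and 0.0476) but not L101P (0.156). CHD5 was the least even, at -3.33 from E292V against -1.30 and -1.20 from L101P and E690K. The non-coding LINC01322, LINC00623 and LINC00540 were at 0.147 to 1.40 CPM in KO and 0.757 to 4.37 CPM in the missense libraries.

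KRT17, a keratin of basal and stressed epithelium, was at 1.45 and 1.22 CPM in KO, 4.09 and 7.14 CPM in L101P, 2.79 and 1.96 CPM in E292V, and 6.64 and 6.30 CPM in E690K. Its log2 difference was -2.09 (SE 0.29) from L101P and -2.30 (SE 0.29) from E690K, and it passed both tests (edgeR adjusted p = 0.0157 and 0.00289). Against E292V the difference was -0.79 (edgeR adjusted p = 0.109). WT had 0.910 and 0.997 CPM, under the KO level, so for this gene the KO line was not the one that stood apart.

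**Figure D4:**
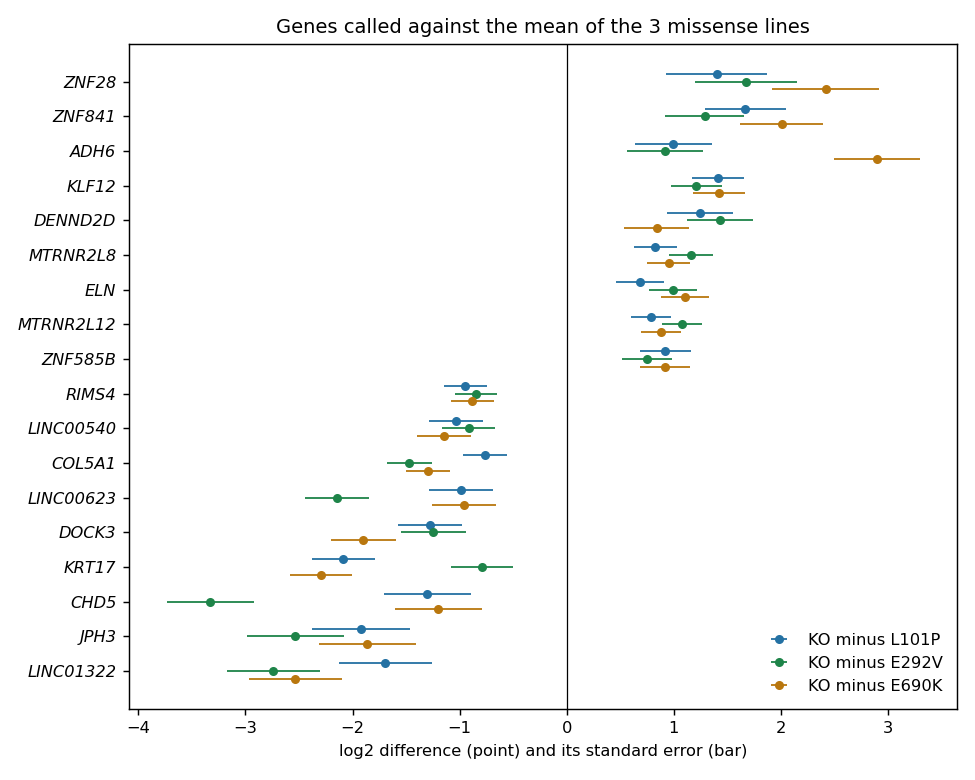
Log2 difference (points) and its standard error (bars) between KO and each of the 3 missense lines for 18 of the 20 genes chosen by their smallest difference among the genes called against the mean. All points of a gene lie on 1 side of 0, as the choice required; ADH6 and CHD5 each have 1 line far from the other pair, and RIMS4 has its 3 points between -0.95 and -0.85.

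The contrast with L101P, the nearest line, named few genes beyond the kept ones. Besides the 5 kept genes, LINC02081, ANKRD30A, KRT17, SLC16A3 and PNMA8A were lower in KO. SLC16A3, the lactate exporter MCT4, was at 72.9 and 73.0 CPM in KO and 102 and 117 CPM in L101P. It was at 58.2 CPM in both E292V libraries, so KO lay between these lines. The log2 differences were -0.60 (SE 0.08) from L101P and 0.36 (SE 0.08) from E292V. WT had 73.8 and 71.2 CPM of SLC16A3, near the KO level, so for this gene KO did not stand apart from WT. PNMA8A, of the paraneoplastic Ma antigen family, was lower in KO against all 3 lines (27.3 and 26.6 CPM against 33.2 to 40.7 CPM) and missed the rule against E690K alone (edgeR adjusted p = 0.0647).

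The 15 genes higher in KO than in L101P included 5 on chromosome Y, of 15 tested there, beside 0.0834% over all genes. These were DDX3Y, KDM5D, USP9Y, RPS4Y1 and EIF1AY. For each of them both L101P libraries lay below every other library, WT included. None of them passed against E292V, and only RPS4Y1 passed against E690K. The other 10 genes higher in KO than in L101P were STK26, SPP1, FAM50B, SRGN, ZNF606, FRAS1, ZNF229, MGAT3, FGF12 and RASGRF2. RASGRF2, an exchange factor for Ras and Rac, was at 5.03 and 5.02 CPM in KO, 1.28 and 1.16 CPM in L101P, 14.3 and 18.4 CPM in E292V, and 3.60 and 3.30 CPM in E690K. KO was thus above L101P and below E292V, with log2 differences of 2.05 (SE 0.24, edgeR adjusted p = 0.00522) and -1.65 (SE 0.22). SPP1, which encodes osteopontin, was at 85.5 and 51.0 CPM in KO, 42.0 and 34.4 CPM in L101P, 71.4 and 66.6 CPM in E292V, and 30.9 and 27.0 CPM in E690K. It passed against L101P and E690K (edgeR adjusted p = 0.0356 and 0.000856), while its difference from E292V was -0.01 (SE 0.13). FAM50B, an imprinted gene, was higher in KO than in each line (10.4 and 9.23 CPM against 4.21 to 7.13 CPM) and missed the rule against E690K.

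Apart from the kept genes, DPYSL3, CEACAM6 and TFF1 were among the genes with large differences from E292V, and in each of them WT lay nearer E292V than KO did. DPYSL3, a relative of CRMP1, was at 1.17 and 1.40 CPM in KO and 108 and 450 CPM in E292V, with 0.950 to 4.68 CPM in L101P and E690K and 66.7 and 204 CPM in WT. CEACAM6, a cell-surface adhesion glycoprotein, was at 513 and 1015 CPM in KO against 38.3 and 24.2 CPM in E292V, a log2 difference of 4.52 (SE 0.50, edgeR adjusted p = 0.000211), while it was at 230 to 963 CPM in L101P and E690K and 76.3 and 91.9 CPM in WT. TFF1, a secreted trefoil peptide of mucous cells, was at 17.6 and 35.5 CPM in KO and 1.98 and 0.654 CPM in E292V, with 2.82 and 2.58 CPM in WT. Against E690K, SCN9A, a neuronal sodium channel gene, was at 6.88 and 7.87 CPM in KO and 0.767 and 0.985 CPM in E690K. SCN9A was also at 1.51 and 1.50 CPM in L101P but at 4.97 and 16.0 CPM in E292V, which overlapped KO.

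Lists of processes that bear on ABCA3 itself were examined next, beside the 0.578% higher and 0.545% lower over all genes against the mean of the missense lines. A count of 0 in a list is near that background. In the same contrast 2117 of the 17978 genes tested had an unadjusted p under 0.05. The DESeq2 calls over all genes are given with the processing alternatives. Of 26 tested genes of the unfolded protein response 0 passed against the mean of the missense lines in edgeR; 5 had an unadjusted p under 0.05, and DESeq2 called 2, ASNS and CHAC1. Their median log2 difference was 0.03, beside 0.00 over all genes tested. DDIT3, the stress-induced factor CHOP, was at 10.1 and 8.18 CPM in KO and 5.21 to 9.64 CPM in the missense libraries, and its difference of 0.38 did not pass (edgeR adjusted p = 0.245). Against E292V singly 4 genes of this list were lower and 0 higher in KO, beside 4.77% lower and 5.9% higher over all genes. Among the 4 was ASNS, the amino-acid-responsive asparagine synthetase. ASNS was at 36.9 and 30.6 CPM in KO and 71.6 and 80.2 CPM in E292V (log2 difference -1.14, SE 0.11). WT, at 51.5 and 59.1 CPM, lay between these. No gene of the list was called against L101P, and 1 was higher against E690K.

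Among 21 genes of endoplasmic-reticulum-associated degradation, 18 of cytosolic chaperones, 25 of lysosomes and autophagy, 24 of cholesterol synthesis and 26 of fatty acid and phospholipid synthesis, 0 passed against the mean of the missense lines in edgeR. In the same order 3, 6, 7, 3 and 2 of them had an unadjusted p under 0.05, and DESeq2 called 0, 2, 4, 1 and 1. The chaperone list had the lowest median of these, -0.08, with 4 of 18 members above 0; over all genes 9141 of 17978 were above 0. HSPA1B, a heat-inducible HSP70 gene with a near-identical neighbour copy, was at 64.8 and 67.2 CPM in KO and 70.9 to 104 CPM in the missense libraries, and did not pass (log2 difference -0.29, edgeR adjusted p = 0.122). In the cholesterol list 8 genes were lower and 2 higher in KO against E292V, with a median of -0.25; over all genes 4.77% were lower and 5.9% higher in that contrast. In the fatty acid and phospholipid list 5 genes were lower and 3 higher against E292V. Against E690K the cholesterol list had a median of 0.16 and 1 gene higher.

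Of 14 tested surfactant and alveolar type 2 genes edgeR called 1 higher in KO against the mean, beside 0.578% over all genes, and DESeq2 called 2, SCD and LRRK2. The gene called by both was LRRK2, a kinase of the endolysosomal system that is abundant in type 2 cells. LRRK2 was at 51.7 and 51.2 CPM in KO and 30.2 to 44.1 CPM in the missense libraries (log2 difference 0.46, SE 0.09, edgeR adjusted p = 0.0306). Of 12 lipid transporters of the ABCA and ABCG families edgeR called 1, and DESeq2 called it and ABCA1. It was ABCG2, an exporter of drugs and urate, at 77.5 and 73.9 CPM in KO. ABCG2 overlapped L101P, at 81.6 and 70.1 CPM, and exceeded E292V and E690K, at 38.8 to 59.5 CPM. SFTPC, at 0.187 and 0.320 CPM in KO and 0 to 0.337 CPM in the missense libraries, did not pass (log2 difference 1.31, SE 1.05, edgeR adjusted p = 0.707).

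In 22 genes of epithelial and mesenchymal state edgeR called 1 higher and 2 lower against the mean of the missense lines; DESeq2 called 5, and 10 had an unadjusted p under 0.05. EPCAM, an epithelial adhesion molecule, was at 20.5 and 22.2 CPM in KO and 10.4 to 15.9 CPM in the missense libraries, higher in KO without overlap (log2 difference 0.66, SE 0.13, edgeR adjusted p = 0.0398). VIM, the mesenchymal intermediate filament vimentin, was at 362 and 396 CPM in KO and 442 to 623 CPM in the missense libraries (log2 difference -0.40, SE 0.08, edgeR adjusted p = 0.0342). MMP2, a collagenase of the matrix, was at 1.47 and 1.01 CPM in KO, 1.92 and 1.61 CPM in L101P, 11.1 and 21.2 CPM in E292V, and 2.75 and 2.76 CPM in E690K. Its call came from E292V, at -3.62, and its difference from L101P was -0.50 (SE 0.32). CAV1, the caveolar coat protein of alveolar type 1 and mesenchymal cells, was at 287 and 331 CPM in KO and 332 to 644 CPM in the missense libraries (log2 difference -0.49, SE 0.10, edgeR adjusted p = 0.0438). EPCAM, VIM, MMP2 and CAV1 did not pass against L101P in edgeR, while DESeq2 called EPCAM there. WT had 378 and 448 CPM of VIM, the first within the KO range and the second within the missense range. For EPCAM, at 10.7 and 7.73 CPM in WT, and for MMP2 and CAV1, neither WT library was within the KO range. Of 13 lung epithelial genes edgeR called EPCAM and CAV1 against the mean, and DESeq2 called these and ELF3. Of 7 fibroblast, 5 leukocyte and 6 endothelial genes tested, 0 passed in edgeR against the mean, with 3, 1 and 2 at an unadjusted p under 0.05, and DESeq2 called THY1 and CD14. The fibroblast markers, summed above, were at 26.7 to 155 CPM in the missense libraries; their part in these differences was not tested.

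Beside 5.9% higher and 4.77% lower over all genes against E292V, the mucin, CEACAM and keratin lists held more higher calls; the difference between lines was not tested. Of 20 tested mucin and goblet-cell genes 8 were higher and 0 lower against E292V, with a median of 1.16, and 0 were called against L101P, where the median was -0.69. SPDEF, the transcription factor of goblet cells, was at 68.2 and 71.7 CPM in KO and 66.2 and 79.5 CPM in L101P, but at 18.9 to 37.4 CPM in E292V and E690K, and it was the 1 member that edgeR called against the mean. DESeq2 did not call SPDEF and called FOXA3 in its place. Of 7 CEACAM genes 5 were higher against E292V and 0 were called against L101P or E690K. Against the mean edgeR called CEACAM6, and DESeq2 called 0 of the list. Of 16 keratins 6 were higher against E292V, and KRT17, lower, was the 1 called against L101P and against E690K.

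Of 24 NRF2 antioxidant genes edgeR called 1 against the mean, AKR1B10, an aldo-keto reductase, and 10 had an unadjusted p under 0.05. DESeq2 called 5: AKR1B10, AKR1C1, AKR1C2, AKR1C3 and NQO1. In this list 22 of 24 differences were above 0, with a median of 0.14. Over all genes tested 9141 of 17978 were above 0, with a median of 0.00, and 2117 had an unadjusted p under 0.05. Of all genes edgeR called 0.578% higher and 0.545% lower in this contrast. AKR1B10 was at 2162 and 2437 CPM in KO and 1933 and 2481 CPM in L101P, overlapping, but at 1384 to 1497 CPM in the E292V and E690K libraries. Against L101P the list's median was 0.02 and 13 of 24 were above 0. Of 26 hypoxia and glycolysis genes edgeR called 1 and DESeq2 2, NDRG1 and CA12. The one called by both was CA12, a membrane carbonic anhydrase, at 712 and 717 CPM in KO and 336 to 676 CPM in the missense libraries (log2 difference 0.58, SE 0.07, edgeR adjusted p = 0.00275). From L101P CA12 differed by 0.10 (SE 0.08).

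Among 24 p53 targets, 22 interferon genes, 16 HLA class I genes, 22 NF-kB and chemokine genes and 26 cell-cycle genes, 0 passed against the mean of the missense lines and 0 against L101P in edgeR. Against the mean 5, 4, 2, 5 and 2 of them had an unadjusted p under 0.05, and against L101P 1, 0, 0, 2 and 3. Over all 17978 genes tested the numbers were 2117 against the mean and 1008 against L101P. DESeq2 called TNFAIP2 of the NF-kB list against the mean and GDF15 of the p53 list in both contrasts. Of the p53 targets 4 of 24 lay above 0 against the mean, with a median of -0.11, beside 9141 of 17978 over all genes. CDKN1A, the p53-induced inhibitor of cyclin-dependent kinases, was at 137 and 123 CPM in KO and 123 to 163 CPM in the missense libraries, which overlap. For the interferon and cell-cycle lists the medians were 0.15 and 0.02. With median-ratio scaling in place of TMM the median of all genes was 0.00 and the signs of the list medians against the missense mean were as given here.

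**Figure D5:**
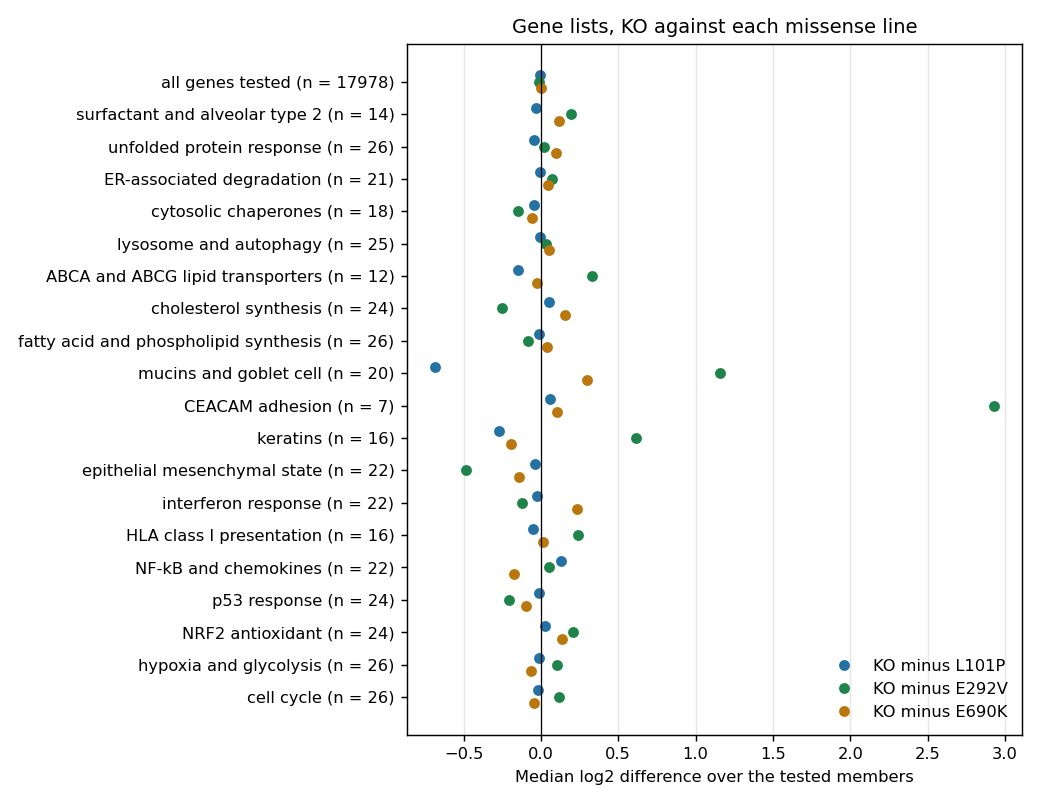
Median log2 difference between KO and each missense line over the tested members of each gene list (number tested in brackets), with all genes at the top; no error is drawn because members are not replicates. The points for L101P lie within 0.3 of 0 except for the mucin list, at -0.69, while those for E292V reach 1.16 for the mucin and 2.93 for the CEACAM list.

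Over the autosomes and chromosome X, the medians of genes of at least 2 CPM against L101P and E690K were close to 0: they ranged from -0.03 to 0.01 and from -0.03 to 0.03 on the log2 scale. Against E292V the median of chromosome X was 0.15, and 106 of its 377 genes were higher and 15 lower in KO. Over all genes tested, of any level, 5.9% were higher and 4.77% lower in that contrast. Chromosome 16 had the lowest median against E292V, -0.09, with 22 of its 521 genes higher and 51 lower. SAGE1 lies on chromosome X, with log2 differences of -1.75 from L101P, -1.89 from E292V and -1.67 from E690K. Any relation of these to the medians of the chromosome was not tested.

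For the 181 genes called against the mean with 1 sign, the WT line, left out of the contrast, lay within the range of the 3 missense lines in 126. It lay between them and KO, nearer KO, in 24 and nearer the missense lines in 15. In 8 it was at or beyond KO, and in 8 beyond the missense lines. That KO lies outside the missense lines in these genes is fixed by their choice.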

How the data were processed

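RNA of 10 samples of A549 lines was sequenced with a total-RNA library kit, per the labels' protocols. The authors deposited 1 table of whole-number counts for 33551 rows, unnormalized. GRCh38, featureCounts and Subread, edgeR and limma are named in the submitters' processing notes, without versions or settings. Row names carry dots for hyphens; 98.5% matched 1 gene of GENCODE release 29, whose coordinates are used. No column was left unused, and 11 rows of viral sequences were at 0. Of the values from 1 to 10, 81.4% were even, against 51.5% above 1000, the form of a table that counts both mates of a pair. Wilson 95% intervals and the level of 3 read pairs (6 counts) are therefore on pairs. They cover counting error only.

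Counts were tested with edgeR 4.0.16 (R 4.3.3): filterByExpr (17978 genes), TMM factors (0.972 to 1.03), line and vector as additive terms over 10 libraries (4 residual degrees of freedom), glmQLFTest, Benjamini-Hochberg adjustment, threshold 0.05. The spread had a coefficient of variation of 12.9%. Standard errors are the log2 difference over the square root of F. CPM divides a count by the library total and is not TMM-scaled. The pooled ratios use exact binomial intervals. The script was tested on simulated data. Alternatives used DESeq2 1.42.0, limma 3.58.1, other filters, designs and left-out libraries.

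The comparison, the gene lists and the named genes were chosen with earlier results of these data known. Named by rule were the kept genes, ABCA3, EGFP, tdTomato, SFTPB and SFTPC, and up to 4 members of each list with the smallest p; SFTPB did not pass the filter. A planned count of CG dinucleotides over the tested genes is not reported, because under 80% of them had a promoter window. Some genes of these choices are not reported here.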

Additional observations from a re-analysis of the deposited data

Results flagged for a closer look

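The log2 change of ABCA3 from the untreated to the transduced library of the line labelled KO, -4.54, stood far from those of the other edited lines, which were -0.37, 0.06 and 0.12 for L101P, E292V and E690K. It was the 1 such value among 4 sets of values examined for a sample far from the rest; chance gives such a value in about 1 of 20 sets. The other sets were the change of EGFP, the total counts and the mitochondrial share. The EGFP change was -9.59 for KO and 5.15, 1.69 and 0.14 for L101P, E292V and E690K. Whether the labels of the KO pair were exchanged was not tested; the counts with them exchanged are given with the processing alternatives.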

How the results depend on the processing

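The counts called were 202 against the mean of the missense lines, 25 against L101P, 1917 against E292V and 295 against E690K, with 5 kept. Without a filter on low counts they were 722, 186 and 787 against the mean, L101P and E690K, with 37 kept. The DESeq2 Wald test gave 490, 87 and 624, with 19 kept. Limma voom gave 14 against L101P and kept 2, SAGE1 and CRMP1; against the mean it called 125 higher and 67 lower. At least 10 counts in every library kept 2. Without a vector term 74 were called against the mean and 119 against E690K, with 3 kept. With the KO labels exchanged there were 44, 11 and 107 against the mean, L101P and E690K, with 3 kept. Without the L101P line 1784, 3079 and 909 were called against the mean, E292V and E690K, with 410 kept; without the E292V line 104 against the mean, with 11 kept; without the E690K line 71 against the mean and 10 against L101P, with 3 kept. Without a line term 2 were called against the mean. Leaving out each library in turn gave 12 to 1210 against the mean, 4 to 424 against L101P, 542 to 3171 against E292V and 21 to 1018 against E690K, with 2 to 42 kept. The cause of these shifts was not tested.

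Median-ratio factors kept the same 5 genes. Of 36 named genes followed, which were ABCA3 and those called against the mean, 23 no longer passed with the KO labels exchanged. Without a line term 33 no longer passed, and without either KO library most did not. Without the KO untreated library ABCA3 was among the 3 genes kept, and without the KO transduced library MYOCD was. Vector status, which pairs libraries across lines, is a term of the fit. The labels give no replicate numbers, so no other pairing was possible.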
